A study of Mus musculus with 12 samples.

Results

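The cytochrome P450 genes of families 1 to 4 are described here in mouse liver. They were taken by their symbols, as every row of the deposited table named Cyp, a family digit from 1 to 4, a subfamily letter, a number and at most 1 further letter, which leaves out symbols marked as pseudogenes. This gave 80 of 24527 gene symbols, with 3 genes in family 1, 48 in family 2, 9 in family 3 and 20 in family 4. Among them Cyp2d13 has a protein gene's symbol but is listed as a transcribed pseudogene by RefSeq. The study sequenced polyadenylated RNA of whole liver from 12 mice, 3 in each of 4 groups. All groups were 39 weeks old and came from CF1 females and B6SJL males. Natural offspring were from mating and IVF offspring from fertilisation in vitro by a Jackson Laboratory protocol, and each kind was sampled in females and in males. No transgene, deletion or drug was named for any group. The sample titles carry numbers whose meaning is not stated, and 1 IVF female (replicate 1) and 1 IVF male (replicate 2) share the first part of theirs, so these 2 may be related. No litter is stated, and the p-values measure the spread between these 12 samples.

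Cytochrome P450s are haem enzymes that insert oxygen into small molecules. In hepatocytes they sit in the membrane of the endoplasmic reticulum and receive electrons from the reductase Por. Families 1 to 3 oxidise drugs, toxins and steroids, and family 4 hydroxylates fatty acids and other lipids. In rodents many of these genes are made at different levels in males and females, a pattern that is known to follow the sex-specific rhythm of growth hormone release. Others are switched on by ligands of the receptors AhR (family 1), CAR and PXR (Cyp2b, Cyp2c and Cyp3a genes) or PPAR-alpha (Cyp4a genes).

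Library totals ran from 6826534 to 27832271 counts. The lowest totals were those of IVF female replicate 1 and natural female replicate 2. Levels are given as CPM, the counts per 1000000 of a library total adjusted by edgeR's trimmed mean of M-values (TMM), and 3 counts correspond to between 0.119 and 0.445 CPM. The 6 hepatocyte markers summed to 102000, 91100 and 103000 CPM in IVF females and 71800, 74000 and 79900 CPM in IVF males, against between 84200 and 96900 CPM in natural animals, and none of the 6 was called between the sexes or by conception. Of the markers of other organs, the 5 of kidney summed to at most 0.125 CPM and the 5 of adipocytes to at most 1.1 CPM. The 5 of pancreas summed to 10.2, 11.3 and 21.1 CPM in IVF females and 24.6, 41.8 and 29.4 CPM in IVF males, nearly all of it Cela1, which was not called. Kupffer cell markers summed to 342, 344 and 235 CPM in IVF females and 174, 114 and 133 CPM in IVF males, and 2 of the 5, Clec4f and Vsig4, were lower in IVF males by the test used below. The 5 genes listed for lymphocytes summed to 19.3, 19.7 and 13.3 and 8.58, 5.76 and 9.86 CPM in the same groups. Of these only Ptprc, which is not confined to lymphocytes, was called lower in IVF males. In natural animals the 5 genes summed to 13.2, 18.7 and 12.8 CPM in females and 9.09, 8.74 and 7.39 CPM in males. These sums did not overlap either, and none of the genes was called there. Stellate cell markers summed to 303, 275 and 255 CPM in IVF females and 190, 157 and 176 CPM in IVF males, with none called. In whole liver, fewer cells of a type and less RNA per cell cannot be told apart. The 20 acute phase genes summed to 27300, 82600 and 54400 CPM in natural males, against between 20800 and 45600 CPM in the other 9 libraries. The 4 genes Hp, Hpx, Saa1 and Saa3 of this list were called higher in natural males than in natural females, and the part of these marker differences in the results that follow was not tested.

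Most of the family lies in tandem arrays of near copies. In the mm10 annotation, the 15 Cyp2c genes are on chromosome 19. All but Cyp2c44 (chr19:44005022-44029208) lie from Cyp2c55 (chr19:39007019-39042693) to Cyp2c70 (chr19:40153353-40187333), and Cyp2c44 lies apart. On chromosome 5, 8 of the 9 Cyp3a genes lie with their neighbours near Cyp3a41a (chr5:145694049-145720136), and 8 Cyp4a genes fill chr4:115242084-115621602. The Cyp2a, Cyp2b and Cyp2g1 genes are interleaved on chromosome 7 from Cyp2b10 (chr7:25897620-25926624) to Cyp2a12 (chr7:27029081-27037375). The promoters below come from the Cyp2c and Cyp3a arrays, where near-identical neighbours differed in direction or size between the sexes, and were chosen because they hold the motif CAAAGTCCA. Cyp3a44, which neighbours Cyp3a41a and was also lower in males, has no match in its promoter and is not shown. They are the 150 bases before the annotated start, from RefSeq on GRCm38.p6, all on the minus strand, in lower case with each CAAAGTCCA in capitals. The motif is a form of the direct repeat that the liver factor HNF4 is known to bind. The windows are chr19:39812815-39812964 for Cyp2c40, chr19:39649043-39649192 for Cyp2c67, chr19:39741102-39741251 for Cyp2c68 and chr19:39886770-39886919 for Cyp2c69. For the Cyp3a genes they are chr5:145879855-145880004 for Cyp3a11, chr5:145469724-145469873 for Cyp3a16, chr5:145720137-145720286 for Cyp3a41a and chr5:145584731-145584880 for Cyp3a41b.
Cyp2c40: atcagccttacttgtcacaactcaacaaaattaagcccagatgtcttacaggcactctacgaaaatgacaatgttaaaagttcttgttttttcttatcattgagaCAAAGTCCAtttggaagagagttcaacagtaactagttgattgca
Cyp2c67: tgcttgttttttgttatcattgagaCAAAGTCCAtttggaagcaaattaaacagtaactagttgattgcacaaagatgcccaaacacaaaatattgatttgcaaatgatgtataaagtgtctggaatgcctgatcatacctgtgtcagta
Cyp2c68: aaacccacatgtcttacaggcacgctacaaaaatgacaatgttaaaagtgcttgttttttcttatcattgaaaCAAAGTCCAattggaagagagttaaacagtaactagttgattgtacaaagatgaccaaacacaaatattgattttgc
Cyp2c69: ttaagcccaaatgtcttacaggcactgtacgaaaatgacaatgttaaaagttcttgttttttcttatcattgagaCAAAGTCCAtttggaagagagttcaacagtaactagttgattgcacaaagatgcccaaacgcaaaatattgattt
Cyp3a11: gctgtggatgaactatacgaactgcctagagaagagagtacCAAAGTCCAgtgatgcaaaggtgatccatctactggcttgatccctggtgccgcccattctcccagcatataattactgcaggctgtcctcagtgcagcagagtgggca
Cyp3a16: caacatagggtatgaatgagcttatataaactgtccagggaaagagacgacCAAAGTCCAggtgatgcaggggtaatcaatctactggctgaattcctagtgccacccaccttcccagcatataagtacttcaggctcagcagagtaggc
Cyp3a41a: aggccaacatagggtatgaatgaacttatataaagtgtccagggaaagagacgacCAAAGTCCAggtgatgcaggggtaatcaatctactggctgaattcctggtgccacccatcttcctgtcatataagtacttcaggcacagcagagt
Cyp3a41b: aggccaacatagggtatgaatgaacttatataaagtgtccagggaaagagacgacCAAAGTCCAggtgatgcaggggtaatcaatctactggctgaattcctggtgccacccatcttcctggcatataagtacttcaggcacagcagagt

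Of the 80 genes, 65 had a RefSeq promoter, 72 promoters in all, each from 250 bases before to 50 bases after the start. CAAAGTCCA, searched on both strands, was in 10 of these 72 promoters, from 10 of the 65 genes, against 0.475% of all 32851 promoters of the same length. The 10 genes were the 8 above with Cyp2c65 and Cyp2c70. The TATA-like TATAAA was in 29 of the 72 promoters (29 genes), against 13.6% of all promoters. TTCNNNGAA, the letters that STAT factors bind, was in 4 of the 72 (4 genes), against 8.3%. The motifs were searched separately, and overlaps between matches of different motifs were kept. Many of these promoters are copies of each other, so the counts are not independent. Cyp2c68 and Cyp2c69 were 91.3% identical over the 250 bases before the start, Cyp3a16 and Cyp3a41a 90.9%, and Cyp3a41a and Cyp3a41b 99.6%. Cyp2c67, which was higher in males, matched Cyp2c69, which was lower in males, at 186 bases of an alignment 300 positions long (62.0%). Unpaired ends counted as differences there. The CAAAGTCCA of Cyp2c67 began at base -125 rather than -75 from the annotated start, and its TATAAA at -40 rather than 10. The annotated starts of the 2 genes are thus offset, and the printed windows share most bases around the motif. Of the 14 genes with a promoter that differed between the sexes in the tests below, 6 held the motif, and of the 35 tested genes with a promoter that did not, 2 did. A match shows only that these letters are present in the window.

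The comparison of males with females asked which P450 genes differ by sex in each mode of conception. Of the 80 genes, 63 had counts high enough to be tested among 13204 genes, and the 17 others are given at the end. In natural animals 18 of the 63 differed at an edgeR quasi-likelihood adjusted p under 0.05, 13 lower and 5 higher in males, against 1.77% of all genes tested (0.879% lower, 0.894% higher). In IVF animals 18 of the 63 differed, again 13 lower and 5 higher, against 2.19% of all genes tested (1.28% lower, 0.909% higher). They were the same 18 genes, each with the same direction in both. Males and females did not overlap for 29 of the 63 genes in natural animals, against 20% of all genes tested, and for 27 in IVF animals, against 21.8%. By family, the called genes were 13 of 38 tested in family 2, 3 of 8 in family 3, 2 of 14 in family 4 and 0 of 3 in family 1. A gene expressed in 1 sex could pass the filter through that sex alone, so these shares describe the tested genes and not the family. The median log2 difference over the 63 genes was -0.16 in natural and -0.26 in IVF animals, beside -0.02 and 0.01 over all genes tested. Of the members listed as female-predominant from general knowledge, 9 of the 10 tested were lower in males in both modes, and Cyp2b10 was the exception. All 4 listed male-predominant members were higher in males in both modes. Both lists were chosen with earlier results of these data known, so these counts are no independent check. Leaving out 1 library at a time gave between 15 and 19 genes in natural animals and between 14 and 19 in IVF animals.

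**Figure D1:**
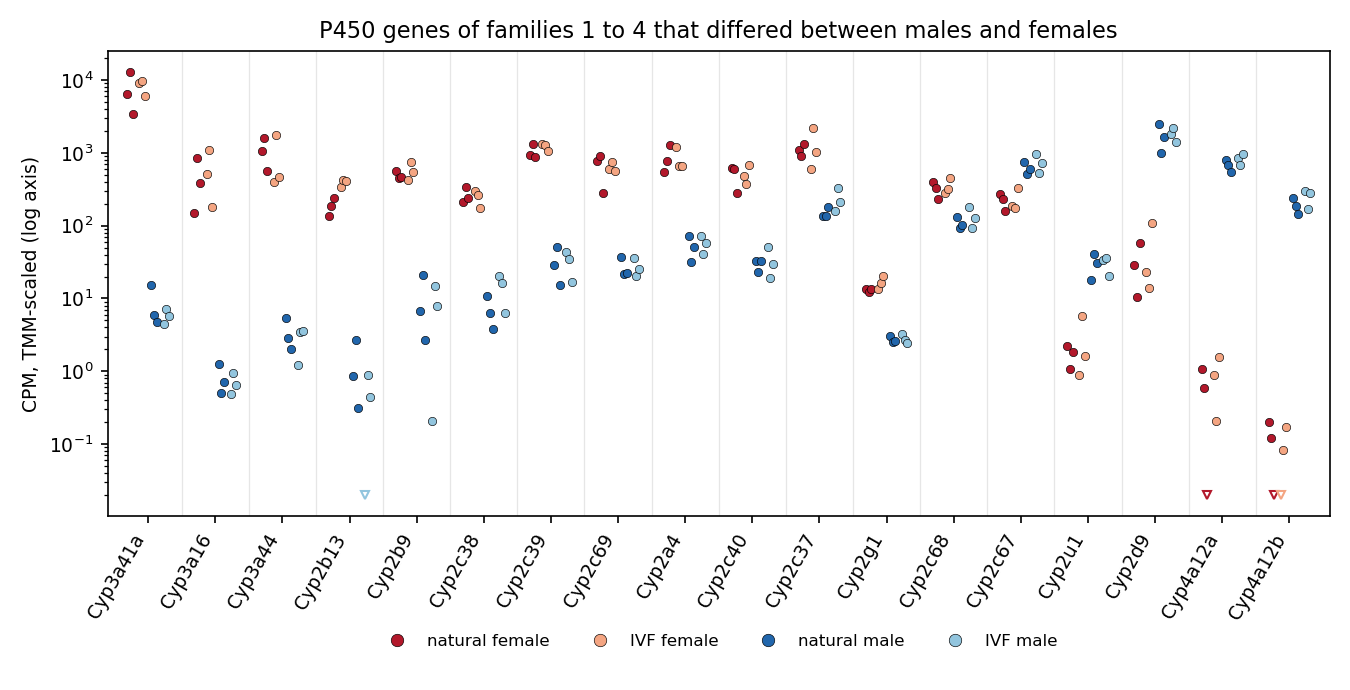
Level of the 18 P450 genes that differed between the sexes, in TMM-scaled CPM on a log axis. Each point is 1 liver, filled by group (3 natural females, 3 IVF females, 3 natural males, 3 IVF males), and open triangles at the bottom stand for a count of 0. Genes run from Cyp3a41a, lowest in males relative to females, to Cyp4a12b, and for each of the 18 the 3 males and the 3 females of a mode of conception do not overlap.

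Toward females, the largest differences in both modes were those of Cyp3a41a and Cyp3a16. Cyp3a enzymes oxidise steroids and a wide range of drugs. Cyp3a41a was at 6365, 12930 and 3401 CPM in natural females and 15.5, 5.89 and 4.74 CPM in natural males. It was at 9162, 9730 and 5969 CPM in IVF females and 4.46, 7.13 and 5.80 CPM in IVF males. Every female library was over 3000 CPM and every male library under 16 CPM. The log2 difference was -9.76 ± 0.74 (SE, edgeR adjusted p = 2.13e-05) in natural animals, 869-fold lower in males, and -10.48 ± 0.76 (edgeR adjusted p = 1.39e-05) in IVF animals. Without natural female replicate 2, the highest library, the natural value was -9.13, and without natural male replicate 1, the highest male, it was -10.47.

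Its neighbours Cyp3a16 and Cyp3a44 had the same pattern at lower levels. Cyp3a16 was at 147, 853 and 382 CPM in natural females and 509, 1097 and 183 CPM in IVF females, and at no more than 1.28 CPM in any male. Cyp3a44 was at 1076, 1589 and 566 CPM in natural females and 401, 1739 and 465 CPM in IVF females, against at most 5.48 CPM in males. The females of a group differed among themselves several times over, yet no male came near the lowest female. The log2 differences were -9.10 ± 0.93 and -9.72 ± 0.96 for Cyp3a16 in natural and IVF animals. They were -8.28 ± 0.83 and -8.28 ± 0.83 for Cyp3a44. Without IVF female replicate 2, which held the highest Cyp3a16 and Cyp3a44 levels of its group, the IVF values were -8.93 and -7.27, and without natural female replicate 2 the natural value of Cyp3a16 was -8.30.

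The 3 genes and the copy Cyp3a41b are consecutive in the array, in the order Cyp3a16 (chr5:145436309-145469723), Cyp3a41b (chr5:145558664-145584730), Cyp3a41a and Cyp3a44 (chr5:145773983-145805874). The next gene, Cyp3a11 (chr5:145854426-145879964), the main hepatic Cyp3a enzyme of mice and a PXR target, was at 2134, 3608 and 3347 CPM in natural females and 7986, 3719 and 2786 CPM in natural males. In IVF animals it was at 3996, 1111 and 2323 CPM in females and 2417, 4832 and 5509 CPM in males. The sexes overlapped in both modes, and the log2 differences of 0.67 ± 0.51 and 0.78 ± 0.51 did not pass the test (edgeR adjusted p = 0.575 and 0.532). Cyp3a11 and Cyp3a41a are 95.2% identical in their coding sequence.

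Cyp3a41a and Cyp3a41b cannot be read as separate genes here. Their coding sequences are identical at 1510 of 1512 bases. Only 4.7% of the 75-base stretches of the Cyp3a41a transcript and 9.1% of those of Cyp3a41b are in no other gene. Cyp3a41b was listed at 0 in all 12 libraries. How reads that match both were counted is not given in the sources used here, so the Cyp3a41a value is best taken as that of the pair.

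On chromosome 7, Cyp2b13 (chr7:26061497-26096197), Cyp2b9 (chr7:26173411-26210661) and Cyp2a4 (chr7:26307169-26315088) are neighbours and all were lower in males. Cyp2b9 and Cyp2b13 are the female-predominant relatives of the phenobarbital-inducible Cyp2b10, and Cyp2a4 is a steroid 15-alpha-hydroxylase. Cyp2b13 was at 138, 185 and 239 CPM in natural females and 0.868, 2.70 and 0.316 CPM in natural males. In IVF animals it was at 335, 428 and 414 CPM in females and 0, 0.886 and 0.45 CPM in males. The 3 IVF females were all above the 3 natural females. The log2 sex difference was -7.20 ± 0.79 in natural and -9.67 ± 0.89 in IVF animals (edgeR adjusted p = 0.000395 and 0.000107). Without natural male replicate 2 the natural value was -8.32, and without IVF male replicate 2 the IVF value was -10.57.

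Cyp2b9 was at 572, 448 and 473 CPM in natural females and 425, 740.0 and 546 CPM in IVF females. In males it varied more, at 6.67, 21.0 and 2.73 CPM in natural and 0.206, 15.0 and 7.81 CPM in IVF animals. Every male was far below every female. The log2 difference was -5.62 ± 1.06 in natural and -6.21 ± 1.09 in IVF animals (edgeR adjusted p = 0.0202 and 0.0115). This call was lost without natural male replicate 1 (edgeR adjusted p = 0.0957) or 3 (0.1) and, in IVF animals, without IVF male replicate 3 (0.073). Without replicate 2 of the natural or of the IVF males, the values were -6.74 and -7.12.

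Cyp2a4 was at 552, 784 and 1294 CPM in natural females and 71.7, 31.6 and 50.7 CPM in natural males, and at 1206, 659 and 657 CPM in IVF females and 72.3, 40.6 and 57.5 CPM in IVF males. Its log2 difference was -4.09 ± 0.44 in natural and -3.89 ± 0.44 in IVF animals (edgeR adjusted p = 0.000381 and 0.000606). The near copy Cyp2a5, the mouse coumarin 7-hydroxylase, is 98.4% identical in coding sequence and was at 555, 846 and 1398 CPM in natural females and 1266, 525 and 868 CPM in natural males. Cyp2a5 overlapped between the sexes in natural animals, at a log2 difference of -0.07 ± 0.39 that turned positive without natural female replicate 3 (0.34) or natural male replicate 2 (0.18). In IVF animals its log2 difference was -0.69 ± 0.39 (edgeR adjusted p = 0.463).

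Cyp2g1, best known from the olfactory mucosa, was the least abundant of the genes lower in males. It was at 13.3, 12.5 and 13.6 CPM in natural females and 3.02, 2.55 and 2.57 CPM in natural males, without overlap. Its log2 difference was -2.27 ± 0.21 in natural and -2.58 ± 0.21 in IVF animals (edgeR adjusted p = 0.000103 and 3.41e-05). Cyp2b10, the standard CAR target, did not pass the test in either mode. It was at 110.2, 45.5 and 40.7 CPM in natural females and 41.0, 42.2 and 24.3 CPM in natural males, and at 59.4, 42.1 and 39.1 CPM in IVF females and 1.10, 15.7 and 4.35 CPM in IVF males. Natural males and females overlapped, while every IVF male was below every IVF female, at a log2 difference of -2.71 ± 0.71 (edgeR adjusted p = 0.0857). That difference passed in DESeq2 (adjusted p = 0.00192) and in edgeR without IVF male replicate 2 (-4.07, edgeR adjusted p = 0.0123).

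The Cyp2c enzymes oxidise drugs and fatty acids such as arachidonic acid. Of the 13 Cyp2c genes tested, 6 were lower in males and 1 was higher, the same in both modes. Along chromosome 19 the genes lower in males were Cyp2c38, Cyp2c39, Cyp2c68, Cyp2c40, Cyp2c69 and Cyp2c37, and Cyp2c67 (chr19:39608842-39649051), which lies between Cyp2c39 and Cyp2c68, was higher. Of these Cyp2c39 had the highest level after Cyp2c37, at 926, 1309 and 873 CPM in natural females and 29.3, 50.2 and 15.3 CPM in natural males. Its log2 difference was -5.03 ± 0.49 in natural and -5.26 ± 0.49 in IVF animals. Cyp2c38 differed by -5.23 ± 0.52 and -4.10 ± 0.49, and Cyp2c40 by -4.08 ± 0.44 and -3.97 ± 0.44.

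Cyp2c67 and Cyp2c69 are 97.7% identical in coding sequence and went opposite ways. Cyp2c69 was at 772, 898 and 280.2 CPM in natural females and 36.6, 21.7 and 22.2 CPM in natural males, and at 606, 741 and 567 CPM in IVF females and 36.1, 20.5 and 25.0 CPM in IVF males. Cyp2c67 was at 276, 234 and 161 CPM in natural females and 756, 517 and 606 CPM in natural males, and at 189, 176 and 332 CPM in IVF females and 956, 522 and 733 CPM in IVF males. No group of one sex overlapped the other for either gene. The log2 differences were -4.60 ± 0.45 and -4.55 ± 0.45 for Cyp2c69 (edgeR adjusted p = 0.00018 and 0.000175) in natural and IVF animals. They were 1.48 ± 0.32 and 1.66 ± 0.32 for Cyp2c67 (edgeR adjusted p = 0.0394 and 0.0197). Between them, Cyp2c68 was lower in males by 2.92-fold in natural and 2.63-fold in IVF animals (edgeR adjusted p = 0.0226 and 0.0303).

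These 3 genes share much of their transcript with Cyp2c40, and only 57.4% of the 75-base stretches of Cyp2c69, 64.0% of Cyp2c67, 71.5% of Cyp2c68 and 54.1% of Cyp2c40 are in no other gene. Reads from the shared stretches could have been given to another of the 4. The calls of Cyp2c67 and Cyp2c68, the smallest of the 18 differences, were the least stable. Without 1 library the edgeR adjusted p of Cyp2c67 passed 0.05 for each of the 6 natural libraries and for IVF male replicate 3 in the natural comparison, at up to 0.128. In the IVF comparison it did so without IVF female replicate 1 or 2 or IVF male replicate 1 or 3, at up to 0.0931. Cyp2c68 was lost without natural female replicate 1 or 2 or natural male replicate 2 or 3 in natural animals, at up to 0.123. In IVF animals it was lost without IVF female replicate 2 or 3, IVF male replicate 2 or 3 or natural male replicate 3, at up to 0.139.

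Cyp2c37, which is both a CAR target and an arachidonic acid oxidase, was at 1102, 897 and 1327 CPM in natural females and 138, 136 and 182 CPM in natural males. In IVF animals it was at 593, 2221 and 1014 CPM in females and 159, 327 and 214 CPM in males, with IVF female replicate 2 far above its group. The log2 difference was -2.87 ± 0.45 in natural and -2.45 ± 0.44 in IVF animals (edgeR adjusted p = 0.00668 and 0.0129). Without IVF female replicate 2 the IVF value was -1.78, and the IVF call was lost without IVF male replicate 1 or 3 (edgeR adjusted p = 0.0645 and 0.0764). It was the 1 gene of the 7 listed CAR and PXR targets that passed in either mode.

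Toward males, the largest differences were those of Cyp4a12a (chr4:115299046-115332815) and Cyp4a12b (chr4:115411624-115439034), which hydroxylate arachidonic acid. Cyp4a12a was at 797, 673 and 552 CPM in natural males and 849.6, 670.5 and 955 CPM in IVF males. In females it was at 1.08, 0.599 and 0 CPM in natural and 0.89, 0.208 and 1.58 CPM in IVF animals. Cyp4a12b was at 243, 187 and 144 CPM in natural males and 304, 171 and 284 CPM in IVF males, while the raw counts of the females were 5, 1 and 0 in natural and 0, 2 and 4 in IVF animals. Cyp4a12b was thus at most 5 counts in any female, and Cyp4a12a at most 37 counts, while both were abundant in every male.

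The log2 differences were 10.14 ± 0.90 and 9.84 ± 0.89 for Cyp4a12a (edgeR adjusted p = 8.53e-05 and 9.55e-05) in natural and IVF animals. They were 10.60 ± 0.59 and 11.10 ± 0.60 for Cyp4a12b (edgeR adjusted p = 2.25e-06 and 2.09e-06). With few counts in females the size is uncertain. Without natural female replicate 1 the natural values were 11.58 and 12.00, without natural female replicate 3 that of Cyp4a12a was 9.54, and without IVF female replicate 3 the IVF values were 10.94 and 11.81. The 2 genes are 98.5% identical in coding sequence, and 40.8% of the 75-base stretches of Cyp4a12a are also in Cyp4a12b, so their split into single genes is uncertain.

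Cyp2d9 (chr15:82433437-82456845), a testosterone 16-alpha-hydroxylase of male mouse liver, was at 2501, 988 and 1652 CPM in natural males and 28.7, 10.6 and 58.0 CPM in natural females. In IVF animals it was at 1787, 2162 and 1411 CPM in males and 23.1, 14.1 and 108 CPM in females. The lowest male, natural male replicate 2, was still far above the highest female, IVF female replicate 3. It was 52.6-fold higher in natural males (log2 5.72 ± 0.87, edgeR adjusted p = 0.00591) and 36.9-fold higher in IVF males (log2 5.21 ± 0.85, edgeR adjusted p = 0.00716). Without natural female replicate 3 the natural value was 6.43, and without IVF female replicate 3 the IVF value was 6.60. It was the 1 gene of the 9 Cyp2d genes tested that passed.

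Cyp2u1 (chr3:131288441-131303227), a fatty acid hydroxylase, was at 18, 41.1 and 31.1 CPM in natural males and 2.25, 1.08 and 1.85 CPM in natural females, and at 33.7, 35.6 and 20.4 CPM in IVF males and 0.89, 5.78 and 1.62 CPM in IVF females. It was higher in males by 4.06 ± 0.59 and 3.33 ± 0.56 on the log2 scale (edgeR adjusted p = 0.00386 and 0.00836). Without IVF female replicate 2, the highest female, the IVF value was 4.46. It stands alone on its chromosome among the family, and 9.1% of its 75-base stretches are also in the annotated gene 4930534D22Rik.

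**Figure D2:**
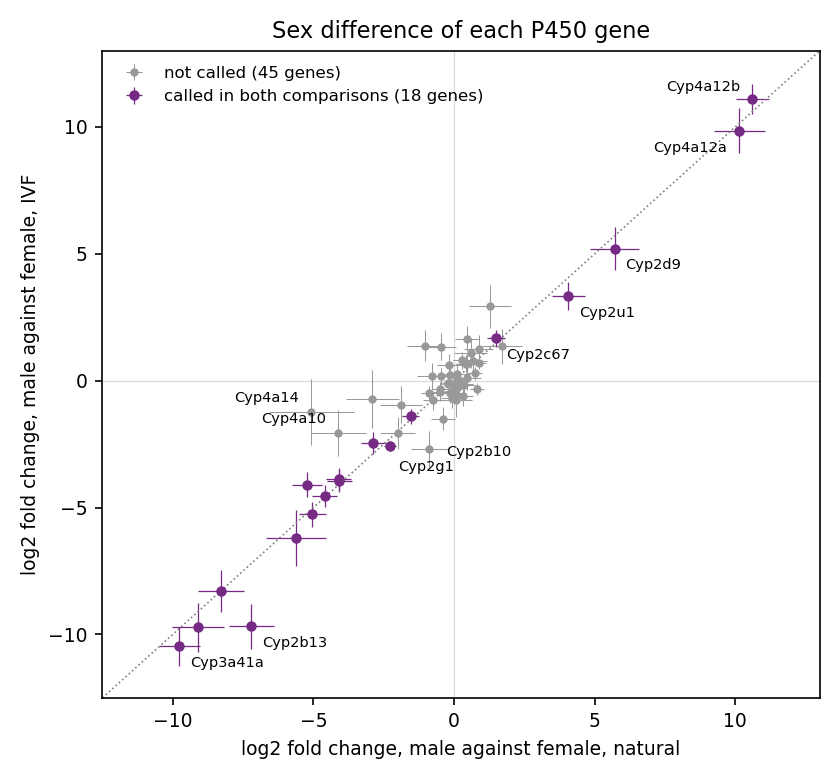
Log2 fold change of males against females for the 63 P450 genes tested, natural animals on the x axis and IVF animals on the y axis, with bars of 1 SE and a dotted line where both are equal. The 18 genes called in both comparisons (purple) run along the line from Cyp3a41a to Cyp4a12b, and most of the 45 others (grey) lie near 0, unlike Cyp4a14 and Cyp4a10, whose bars are wide.

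Likeness of sequence and likeness of the sex difference were set side by side for the 177 pairs of tested genes within a subfamily. Of the 15 pairs that were at least 95% identical in coding sequence, 10 differed by more than 2 on the log2 scale in their sex difference in natural animals, and 9 did in IVF animals. The share of the other 162 pairs that did so was not counted, so 10 of 15 does not show that near-identical pairs differ more or less. Wider gaps occurred among those 162, such as 15.68 in natural animals for Cyp4a12b with Cyp4a14. Among the 15, Cyp3a11 with Cyp3a41a was the widest, at 10.44 in natural and 11.26 in IVF animals. Cyp2c67 with Cyp2c69 followed, at 6.08 and 6.22. Cyp2a4 with Cyp2a5 differed by 4.02 and 3.20. Cyp4a12a with Cyp4a12b, the most identical pair, differed by 0.46 in natural and 1.25 in IVF animals. Pairs share members and, where reads match several genes, may share reads.

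**Figure D3:**
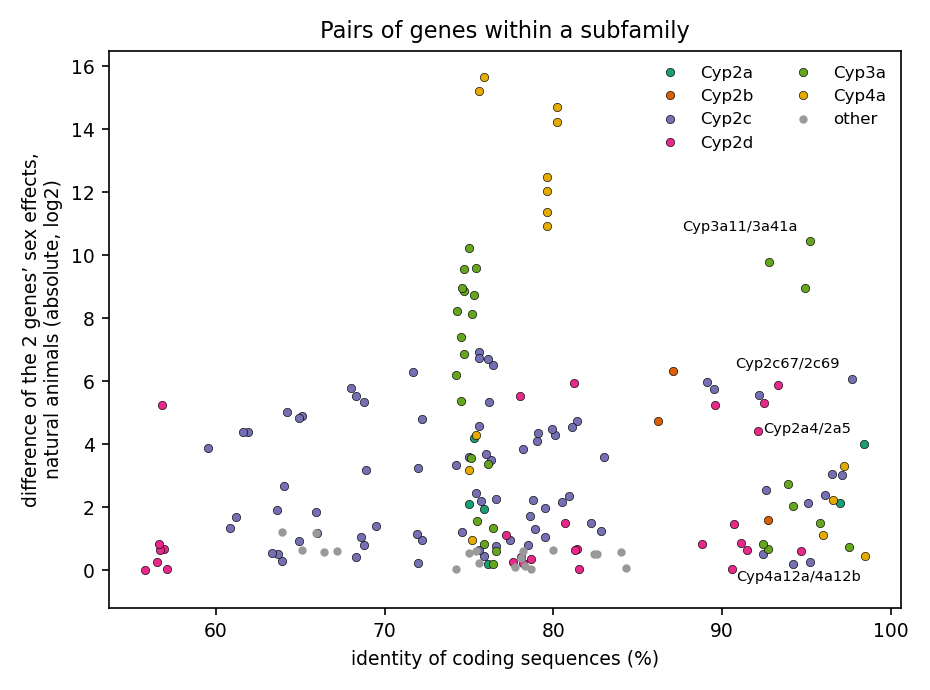
Each point is a pair of tested genes of the same subfamily, with the identity of their coding sequences in percent on the x axis and the absolute difference of their log2 sex differences in natural animals on the y axis. Points at the right show near-identical pairs with large gaps, such as Cyp3a11 and Cyp3a41a at 95.2% identity and 10.44, beside Cyp4a12a and Cyp4a12b at 98.5% and 0.46.

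Within a group, levels were compared between genes per kilobase of exon. Cyp2e1, which oxidises ethanol, acetone and other small solvents, was first in every group, at 4050 ± 115 CPM per kb in natural females, 4130 ± 559 in natural males, 4260 ± 1050 in IVF females and 3870 ± 717 in IVF males (SD, n = 3 each). It overlapped between all groups, with log2 sex differences of 0.03 ± 0.25 and -0.14 ± 0.25, whose signs changed when single libraries were left out. In females Cyp3a41a came next, at 3090, 6279 and 1651 CPM per kb in the 3 natural and 4447, 4723 and 2898 in the 3 IVF animals, a range that overlapped that of Cyp2e1. The genes after it were several times lower and overlapped among themselves. They were Cyp2c37 (608 ± 118), Cyp3a11 (595 ± 155) and Cyp2c39 (570 ± 131) in natural females and Cyp2a5 (707 ± 172), Cyp2c37 (700 ± 463) and Cyp2c39 (670 ± 79.3) in IVF females.

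In males no gene stood beside Cyp2e1. Cyp3a11 was second, at 948 ± 544 CPM per kb in natural and 835 ± 319 in IVF males. Cyp2c29, a CAR target, was at 722 ± 73.6 and 522 ± 160, Cyp2f2, which bioactivates naphthalene, at 684 ± 359 and 702 ± 149, and Cyp2d9 at 645 ± 285 and 672 ± 141. These 4 overlapped in their ranges. Cyp2f2 and Cyp2c29 did not pass the test between the sexes (edgeR adjusted p between 0.222 and 0.695).

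Summed over the 80 genes, the level was 37700, 46700 and 36300 CPM in natural females and 39600, 45000 and 39500 CPM in IVF females. In males it was 39100, 25800 and 26700 CPM in natural and 26800, 31900 and 29100 CPM in IVF animals. The genes took between 3.9% and 4.96% of all counts in females and between 2.21% and 3.53% in males. Without Cyp3a41a the sums were 31300, 33800 and 32900 CPM in natural females and 30400, 35300 and 33500 CPM in IVF females. The males ran from 25800 to 39100 CPM, and all but natural male replicate 1 were at or under 31900 CPM, below 4 of the 6 females. The highest male sum, natural male replicate 1, also had the highest Cyp3a11 level of all 12 libraries.

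The AhR targets Cyp1a1, Cyp1a2 and Cyp1b1 did not pass the test in either mode. Cyp1a2, the caffeine-oxidising enzyme, was at 510.5, 467 and 598 CPM in natural females and 1130, 783 and 846 CPM in natural males, which did not overlap. It was at 1113, 617 and 692 CPM in IVF females and 591, 707 and 623 CPM in IVF males, which did. The log2 sex difference was 0.81 ± 0.25 (edgeR adjusted p = 0.149, DESeq2 adjusted p = 0.0323) in natural and -0.33 ± 0.25 (edgeR adjusted p = 0.594) in IVF animals. Cyp1a1, the classic sign of AhR activation, was at no more than 6.05 CPM in any library, and Cyp1b1 at no more than 1.56 CPM.

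The PPAR-alpha targets among the Cyp4a genes, Cyp4a10, Cyp4a14, Cyp4a31 and Cyp4a32, none of which passed between the sexes in edgeR, varied widely between animals of 1 group. Cyp4a14 was at 309, 939 and 1465 CPM in natural females, 12.2, 67.2 and 1.38 CPM in natural males, 182, 1143 and 758 CPM in IVF females and 382, 8.07 and 487 CPM in IVF males. Cyp4a10 was at 862, 1364 and 1135 CPM in natural females, 49.1, 129 and 15.7 CPM in natural males, 248, 1064 and 1140 CPM in IVF females and 269.9, 22.6 and 293 CPM in IVF males. Replicate 2 of the IVF males was low for both genes and lay within the range of the natural males, and replicates 1 and 3 were high for both. Cyp4a31 was also low in IVF male replicate 2, at 3.44 CPM against 18.3 and 15.8 in replicates 1 and 3, whereas Cyp4a32 was not, at 98.0, 86.2 and 67.6 CPM. IVF male replicate 2 was also the lowest IVF male for Cyp4a12a and Cyp4a12b, by a smaller margin.

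In natural animals the males were below the females for both genes without overlap, at log2 differences of -5.07 ± 1.52 for Cyp4a14 (edgeR adjusted p = 0.139, DESeq2 adjusted p = 0.00845) and -4.11 ± 0.98 for Cyp4a10 (edgeR adjusted p = 0.0627, DESeq2 adjusted p = 0.00115). The edgeR call of Cyp4a10 was made without IVF female replicate 1 (edgeR adjusted p = 0.0478) or IVF male replicate 2 (0.0263), with scaling by library size alone (0.0331), with no filter on low counts (0.0447) and from the 6 natural libraries alone (0.0446). In IVF animals the values were -1.25 ± 1.30 and -2.07 ± 0.90 (edgeR adjusted p = 0.724 and 0.304). The sums of the 4 genes were 1330, 2410 and 2910 CPM in natural females and 186, 297 and 89.8 CPM in natural males, and 474, 2300 and 2060 CPM in IVF females and 768, 120 and 863 CPM in IVF males, where the sexes overlapped.

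**Figure D4:**
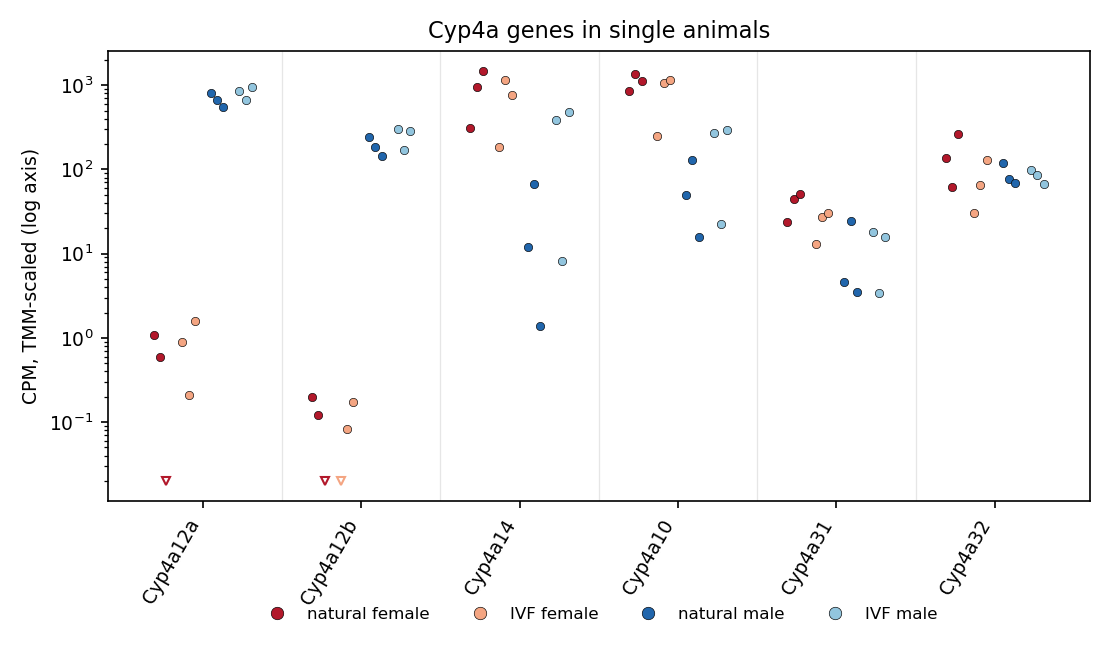
Level of 6 Cyp4a genes in each liver, in TMM-scaled CPM on a log axis, with points filled by group and open triangles for a count of 0. Cyp4a12a and Cyp4a12b separate the sexes completely, while Cyp4a14 and Cyp4a10 spread widely among males, with IVF male replicate 2 at 8.07 and 22.6 CPM below the other 2 IVF males.

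The comparison of IVF with natural animals asked whether the mode of conception left a difference in the adult liver. Among females none of the 63 P450 genes passed the edgeR test, against 0% of all genes tested, and 4 of the 63 had an unadjusted p under 0.05, against 3.7% of all genes. Among males none of the 63 passed, against 0.00757% of all genes (1 gene, not a P450), and 7 had an unadjusted p under 0.05, against 2.69%. DESeq2 called none of them either. The groups did not overlap for 3 of the 63 genes in females, against 7.42% of all genes, and for 4 in males, against 8.91%. The median log2 difference of the 63 genes was 0.00 in females and 0.01 in males. The log2 differences of the 18 sex-differing genes by conception ran from -0.31 to 1.07 in females and from -1.41 to 1.02 in males.

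In males the gene of smallest p was Cyp2b10, at 1.10, 15.7 and 4.35 CPM in IVF and 41.0, 42.2 and 24.3 CPM in natural males. All 3 IVF males were below all 3 natural males, at a log2 difference of -2.33 ± 0.70 (edgeR adjusted p = 1). Without IVF male replicate 2 this was -3.69. Cyp2j9, an arachidonic acid epoxygenase best known from brain, was at 6.38, 13.9 and 12.3 CPM in IVF and 5.30, 4.54 and 2.69 CPM in natural males, again without overlap, at 1.38 ± 0.53 (edgeR adjusted p = 1). Cyp4a14, with the largest value, 3.44 ± 1.41 (edgeR adjusted p = 1), overlapped, with IVF male replicate 2 inside the range of the natural males. It was 5.43 without natural male replicate 2. In the same fit all 20 acute phase genes had negative log2 differences, from -5.08 to -0.45, with 10 at an unadjusted p under 0.05 and none at an adjusted p under 0.05. The 5 Kupffer markers were also negative, from -1.17 to -0.49, with 4 not overlapping and 4 at an unadjusted p under 0.05, and none called (sums 174, 114 and 133 CPM in IVF and 233, 244 and 210 CPM in natural males). The part of either list in these values was not tested.

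In females the genes of smallest p were scarce ones. Cyp3a57 was at 0.594, 0.249 and 0.427 CPM in IVF and 0.201, 1.08 and 6.84 CPM in natural females, and 118 of the 132 natural counts came from natural female replicate 3. Its log2 difference of -2.79 ± 0.98 (edgeR adjusted p = 1) was -0.45 without that library. Cyp2d12 was at 0.148, 0.499 and 1.11 CPM in IVF and 0.802, 0.959 and 6.78 CPM in natural females. Natural female replicate 3 was again the high one, and the log2 difference of -2.11 ± 0.84 was -0.34 without it. Cyp2d34 was at 0.594, 0.208 and 0.342 CPM in IVF and 0.521, 1.08 and 1.10 CPM in natural females, which overlapped, from 4, 5 and 8 against 13, 9 and 19 counts. Its log2 difference was -1.36 ± 0.51 (edgeR adjusted p = 1).

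**Figure D5:**
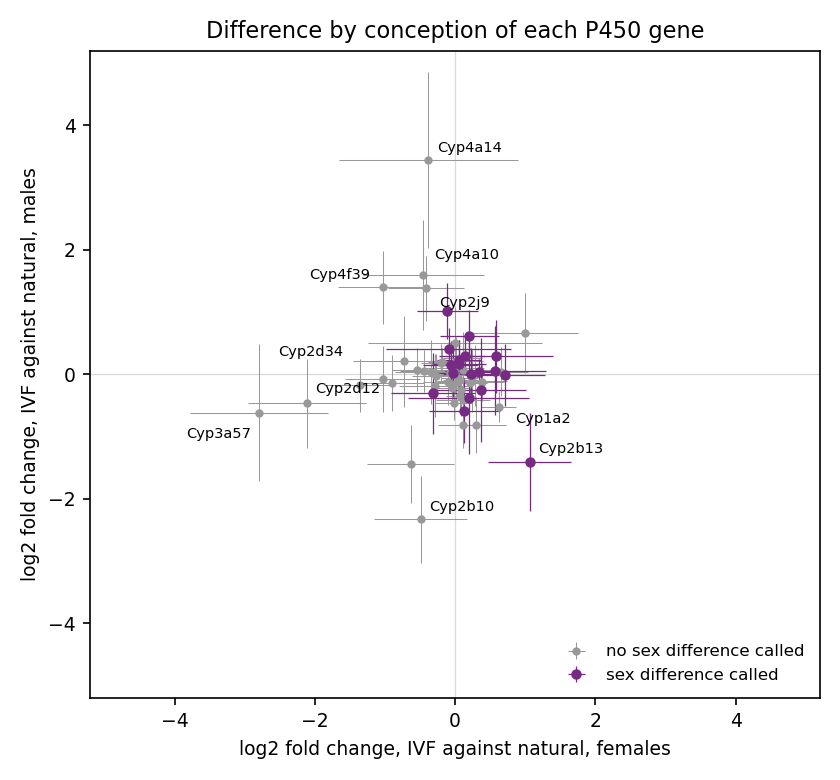
Log2 fold change of IVF against natural animals for the 63 P450 genes tested, females on the x axis and males on the y axis, with bars of 1 SE. Most genes lie within 1 of 0 on both axes, Cyp2b13 (1.07 in females, -1.41 in males) is the farthest of the 18 genes with a sex difference (purple), and the farthest of the others are Cyp4a14 at 3.44 and Cyp2b10 at -2.33 in males and Cyp3a57 at -2.79 in females, none of which passed the test.

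The interaction term asked whether the difference by conception was itself different in males and females, which is the same as asking whether the sex difference changed with conception. None of the 63 genes passed, against 0% of all genes tested, and 4 had an unadjusted p under 0.05, against 3.87% of all genes. The values ran from -2.47 to 3.82 on the log2 scale. The smallest p belonged to Cyp1a2, whose IVF minus natural difference in males minus that in females was -1.14 ± 0.35 on the log2 scale (edgeR adjusted p = 1). For Cyp1a2 the IVF females, at 1113, 617 and 692 CPM, were all above the natural females, and the IVF males, at 591, 707 and 623 CPM, all below the natural males. Cyp4f39 (2.43 ± 0.86, raw counts of at most 15) and Cyp2b13 (-2.47 ± 0.98) came next. The interaction of Cyp2b13 was -1.37 without natural male replicate 2.

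The partners that P450 enzymes need were set beside them. Of 12 listed genes for electron transfer, haem and epoxide handling, 1 passed between the sexes in each mode and none by conception. Over all genes tested, 1.77% passed between the sexes in natural and 2.19% in IVF animals. Alas1, the rate-limiting enzyme of haem synthesis, was at 25.4, 84.7 and 128 CPM in natural females and 382, 480.4 and 657 CPM in natural males, without overlap, a log2 difference of 2.67 ± 0.59 (edgeR adjusted p = 0.0445). That call was lost in 8 of the 12 fits without 1 library: without IVF female replicate 2 or 3, IVF male replicate 2, natural female replicate 1 or 2 or any natural male, at an edgeR adjusted p of up to 0.158. In IVF animals Alas1 did not pass, and no log2 difference among the 12 was above 1.38. Ephx1, the microsomal epoxide hydrolase, was at 219.7, 320.5 and 279.9 CPM in IVF females and 641, 668 and 828 CPM in IVF males, a log2 difference of 1.38 ± 0.23 (edgeR adjusted p = 0.00866). In natural animals Ephx1 did not pass. The reductase Por was between 381 and 905 CPM in all 12 libraries.

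Of 25 tested regulators of P450 genes, 2 were lower in natural males than in natural females, against 0.879% of all genes tested. In IVF animals 3 were lower in males, against 1.28%. None was higher in males, against 0.894% of all genes in natural and 0.909% in IVF animals. The list was chosen with earlier results of these data known. Cux2, a homeobox repressor known as female-specific in mouse liver, was at 9.35, 10.8 and 39.6 CPM in natural females and 0.228, 0.2 and 0.119 CPM in natural males, and at 8.31, 37.6 and 36.5 CPM in IVF females and 0.137, 0.443 and 0.15 CPM in IVF males. Its log2 difference was -6.75 ± 0.86 in natural and -6.75 ± 0.85 in IVF animals (edgeR adjusted p = 0.00139 and 0.00119). It was -5.75 without natural female replicate 3 and, in IVF animals, -7.52 without IVF male replicate 2. Trim24, a cofactor of nuclear receptors, differed by -1.79 ± 0.32 and -2.37 ± 0.33 (edgeR adjusted p = 0.0166 and 0.00235), and the natural call was lost without natural male replicate 2 or 3 (edgeR adjusted p = 0.0807 and 0.1). Esr1, the oestrogen receptor, was lower in IVF males than in IVF females, at a log2 difference of -2.35 ± 0.23 (edgeR adjusted p = 0.000175). It did not pass in natural animals. The receptors for the inducers, Ahr, Nr1i2 (PXR), Nr1i3 (CAR) and Ppara, did not pass in any comparison.

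Of the 17 P450 genes that were not tested, 6 were listed at 0 in all 12 libraries. They were Cyp3a41b, whose 0 gives no limit because its reads cannot be told from those of Cyp3a41a, and Cyp2j11, Cyp2j12, Cyp2j13, Cyp2w1 and Cyp4x1, whose 0 allows a level of up to between 0.119 and 0.445 CPM by counting error alone. In all, 10 of the 80 genes had no more than 3 counts in any library. Cyp4a30b was counted in all 6 males, at 2, 7 and 7 counts in natural and 1, 11 and 12 in IVF males, and in none of the 6 females. It lies between Cyp4a12b and Cyp4a14 in the array, and it was singled out after its counts were seen. Cyp2b23 had 14 counts in natural female replicate 3 and at most 2 elsewhere.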

How the data were processed

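Polyadenylated RNA of 12 snap-frozen mouse livers, 3 in each of 4 groups, was sequenced on a NextSeq 500 after KAPA mRNA library preparation, per the labels' protocols. The submitters' processing notes name Trimmomatic 0.32, STAR 2.3.0e, featureCounts 1.5.0 and the build mm10. Their settings, the annotation, the use of strand, the read length and how reads matching more than 1 gene were counted are not given in the sources used here. The authors deposited 1 table of whole-number counts per gene symbol. Groups were taken from the labels, and every sample column of the table was used.

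The counts were analysed with edgeR 4.0.16 (limma 3.58.1, R 4.3.3). Genes were kept by filterByExpr on the 4 groups, libraries were scaled by TMM, and 1 mean per group was fitted over all 12 libraries with the quasi-likelihood test. P-values were adjusted by Benjamini-Hochberg over the 13204 genes kept, and an adjusted p under 0.05 is called. The SE is the absolute log2 difference divided by the root of the F value. Differences are male minus female and IVF minus natural. The fit was tested on simulated counts of the natural comparison of the sexes (12998 genes). There it recovered 22.2% of 2-fold, 79.7% of 4-fold and 91.8% of 8-fold changes, and 6 unchanged genes were called.

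Genes were matched to GENCODE M21 (GRCm38, the same assembly as mm10) for positions, exon lengths and shared 75-base stretches, with 79 of 80 matched, and promoters came from RefSeq on GRCm38.p6. Cyp2c44 was matched under its annotation name Cyp2c23. The genes named by rule are a textbook set, every member called between the sexes (ranked by log2 difference among those whose higher group averaged 50 or more normalized counts), every called member and the 3 members of smallest p in each comparison by conception and the interaction, the 5 members of highest CPM per kb in each group, and listed partners that were called. Textbook genes are given by their levels in the comparisons by conception. The members and gene lists were chosen with earlier results of these data known. Alternatives were DESeq2 1.42.0, other scalings and filters, fits of 6 libraries alone, and leaving out each library or both shallow ones. Replicates of a group differed by more than sampling noise, with a chi-square per degree of freedom of at least 80.7. Intervals and floors cover counting error only.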

Additional observations from a re-analysis of the deposited data

How the results depend on the processing

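No paired analysis was possible because the groups compared share at most 1 number in the sample titles (1 IVF female and 1 IVF male, whose shared number has no stated meaning), and the replicate numbers used here only follow the order of the samples. The IVF comparison of the sexes called 18 P450 genes in each of the 2 fits that left out 1 of these libraries. In each, 17 of them were among the 18 of the main fit. The number of P450 genes called between the sexes was 23 in natural and 22 in IVF animals with DESeq2, 17 and 18 without the 2 libraries of lowest total, and 16 in IVF animals when those 6 libraries were fitted alone. No P450 gene was called by conception or in the interaction under any alternative run. The interaction was not run on 6 libraries alone. Over all genes, calls in natural animals were 234, against 648 with DESeq2, 510 with scaling by library size alone, 139 from the 6 libraries alone and between 111 and 263 with 1 library left out. In IVF animals they were 289, against 688 with DESeq2 and between 137 and 348 with 1 library left out. By conception DESeq2 called 4 genes in females, 2 in males and 6 in the interaction, none of them a P450 gene of families 1 to 4. Scaling by library size alone moved the median log2 difference of all genes to -0.34 in natural and -0.10 in IVF animals between the sexes and to 0.14 by conception in males. Over the named genes, 1354 values kept direction and side of the threshold, 50 lost and 10 gained the call, and 5 changed sign. Cyp2e1 in natural animals became -0.28 with library size alone and ran from -0.082 to 0.091 with 1 library left out. In IVF animals it ran from -0.35 to 0.024, and Cyp2a5 in natural animals from -0.42 to 0.34. Cyp2a5 was 0.34 without natural female replicate 3 and 0.18 without natural male replicate 2. The cause was not tested for these changes. Beside the losses with 1 library left out, Alas1, Trim24, Cyp2c67, Cyp2c37 and Cyp2c68 each lost a call between the sexes when 6 libraries were fitted alone, at an edgeR adjusted p between 0.0587 and 0.0831. Cyp2c67 also lost its natural call with library size alone (0.062) and, without the 2 libraries of lowest total, its call in natural (0.0751) and IVF animals (0.0652), as did Alas1 in natural animals (0.0936). Of the textbook genes by conception, 87 of 989 values changed sign and none was called. With 3 animals a group, simulated 2-fold changes were recovered in 22.2% of cases in the natural comparison of the sexes. Smaller differences were thus mostly not detectable in that comparison at this depth and number. Recovery was not simulated for the comparisons by conception or the interaction, so this share does not carry over to them.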

Other observations

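Among the 13 tested genes of the 20 from other P450 families, which make bile acids, sterols and steroids, Cyp7b1, the oxysterol 7-alpha-hydroxylase, was higher in males in both modes. It was at 94.7, 49.5 and 48.1 CPM in natural females and 746, 907.3 and 1094 CPM in natural males, and at 55.8, 41.0 and 77.6 and 714, 658 and 684 CPM in IVF females and males. Its log2 difference was 3.83 ± 0.34 in natural and 3.56 ± 0.33 in IVF animals (edgeR adjusted p = 7.57e-05 and 0.000117). Every male was several times above every female. Cyp17a1, the 17-alpha-hydroxylase of steroid synthesis, was at 15.9, 28.1 and 39.2 CPM in IVF females and 1.10, 2.12 and 2.05 CPM in IVF males, lower in males at a log2 difference of -3.97 ± 0.80 (edgeR adjusted p = 0.0241). That call was lost without IVF female replicate 2 or 3 or any 1 of the IVF males, at an edgeR adjusted p between 0.0641 and 0.109. In natural animals the value was -3.28 ± 0.76 (edgeR adjusted p = 0.0555). Cyp7a1, the rate-limiting enzyme of bile acid synthesis, and Cyp8b1, Cyp27a1 and Cyp51 did not pass the test in any comparison.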
